A study of Saccharomyces cerevisiae with 6 samples.

Results

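The 9 lysine synthesis genes of Saccharomyces cerevisiae, LYS1, LYS2, LYS4, LYS5, LYS9, LYS12, LYS14, LYS20 and LYS21, were followed in an evolved wine yeast and in the strain it came from. They were taken by symbol from the annotation of the array, and all 9 had a probe set, out of 5449 genes with a probe set of their own. Each had exactly 1, so no choice between probe sets was needed. P5-EM is a single strain isolated after a pool of 27 commercial wine strains had been treated with ethyl methanesulfonate (EMS, an alkylating mutagen) and passed through serial batch cultures for 200 generations at 12 °C. P5 is its commercial parent, and was not treated or evolved. Both were fermenting SM1, a synthetic grape must low in inositol with ammonium and amino acids as nitrogen, at 12 °C when cells were collected in exponential growth, from 3 independent cultures of P5-EM and 3 of P5. Which amino acids the must held, lysine included, is not given in the sources used here.

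Fungi make lysine by the alpha-aminoadipate pathway, a route that animals lack and that plants and most bacteria replace with another. Carbon from 2-oxoglutarate and acetyl-CoA is joined to homocitrate, turned into 2-oxoadipate by steps that resemble the tricarboxylic acid cycle, aminated to aminoadipate, reduced to the semialdehyde and taken to lysine through saccharopine. Lysine inhibits the entry enzyme, the semialdehyde acts with the activator Lys14 to raise transcription of LYS genes, and Gcn4, the activator of general amino acid control, acts on many of the same genes. S. cerevisiae does not grow on lysine as its only nitrogen source, so lysine serves it chiefly for protein.

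All 9 genes had a positive log2 difference, P5-EM minus P5, as had 46.4% of all probe sets. In the test 2 of the 9 passed, where 6.09% of all probe sets were called higher. LYS12 was 1.69-fold and LYS9 1.59-fold higher in P5-EM. These encode homoisocitrate dehydrogenase, which makes 2-oxoadipate, and the saccharopine dehydrogenase that makes saccharopine. LYS1, for the last step to lysine, lay just outside the limit, and none of the 9 reached a 2-fold difference. LYS12 and LYS9 each lost their call in 6 of 13 other settings, in which the processing was varied or an array left out. In 6 of the 9 all P5-EM arrays were above all P5 arrays, as in 21.1% of all probe sets. The differences were widest on replicate 1 of P5-EM and narrowest on replicate 3. The values below are log2 expression estimates, so a difference of 1 is a 2-fold change. A gene was called changed when limma, a moderated linear model fitted over all 5498 probe sets, gave a two-sided p of 0.05 or less after Benjamini-Hochberg adjustment over that whole table.

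The arrays of the evolved strain varied more than those of the parent. Replicate 1 of P5-EM correlated at 0.953 and 0.967 with the other P5-EM arrays, which correlated at 0.99 with each other, and the P5 arrays correlated at 0.992 to 0.996 over all probe sets. The median SD of a probe set was 0.221 over P5-EM arrays and 0.122 over P5 arrays. Background was read from probe sets of another yeast, S. pombe, on the same array, and each member exceeded their 95th and 99th percentiles on all 6 arrays. Fewer cells carrying a transcript and less transcript in each cell cannot be told apart in such cultures, nor can strain and stage of fermentation at a single sampling time.

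**Figure D1:**
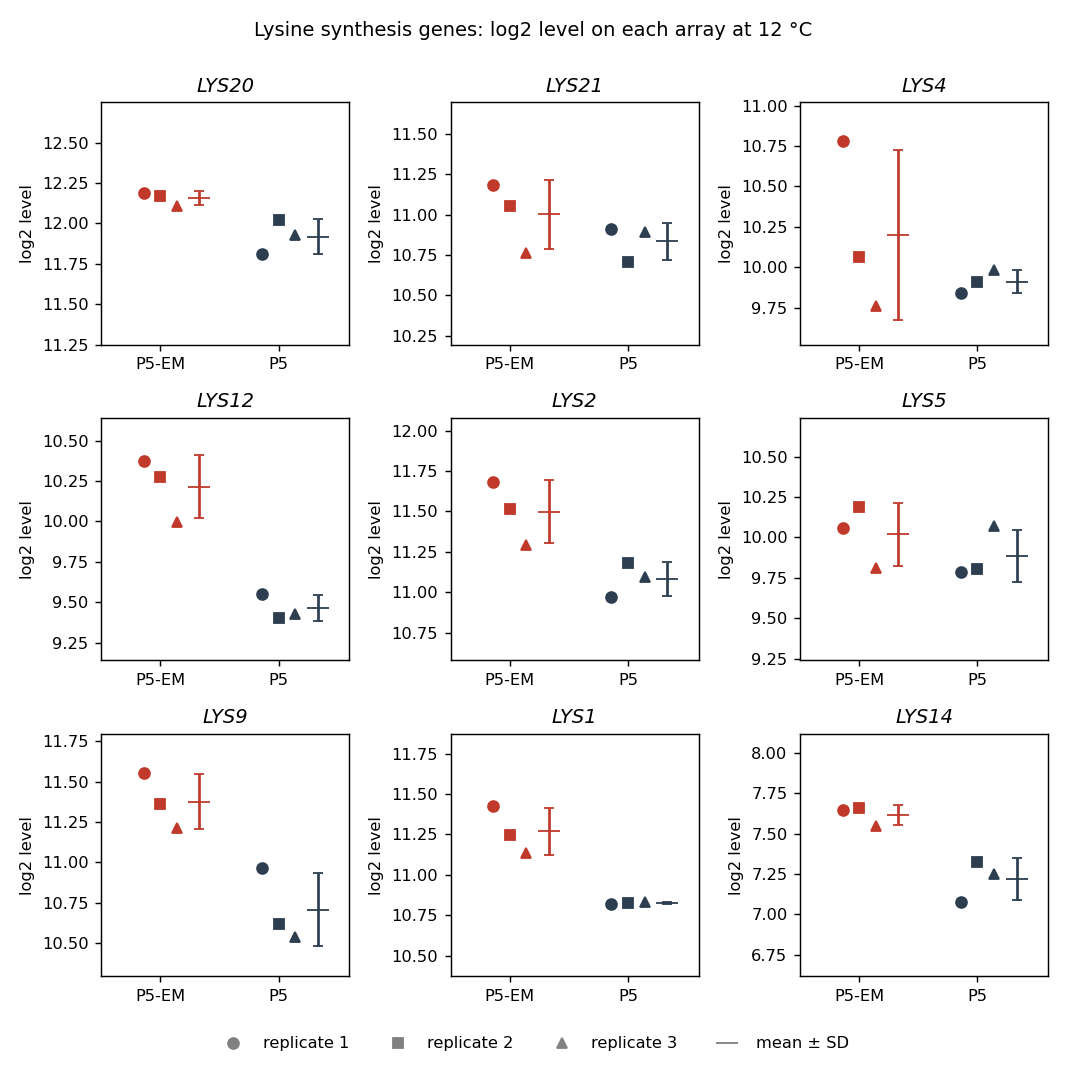
Log2 level of each lysine synthesis gene on every array (vertical axes, each spanning 1.5 log2 units), with P5-EM left of P5. Markers are the replicate cultures and bars the mean ± SD of 3 arrays. Replicate 3 is the lowest P5-EM array in every panel, and in 6 panels all P5-EM arrays lie above all P5 arrays.

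The pathway begins with homocitrate synthase, encoded by LYS20 (YDL182W) and LYS21 (YDL131W). LYS20 had log2 levels of 12.19, 12.17 and 12.11 on the P5-EM arrays, against 11.81, 12.02 and 11.93 on the P5 arrays. The P5-EM arrays were all above the P5 arrays, by a gap of 0.088 between the nearest 2 arrays. The mean was 12.16 ± 0.04 in P5-EM and 11.92 ± 0.11 in P5 (SD, n = 3 each), a log2 difference of 0.24 (95% interval -0.02 to 0.50, limma adjusted p = 0.178).

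LYS21 had 11.19, 11.06 and 10.77 on the P5-EM arrays, against 10.91, 10.70 and 10.89 on the P5 arrays. Here the strains overlapped, replicate 3 of P5-EM lying below replicates 1 and 3 of P5. The log2 difference of LYS21 was 0.17 (95% interval -0.18 to 0.51, limma adjusted p = 0.446). Both genes encode the same activity from closely related sequences, and whether their probe sets take up each other's transcripts was not tested.

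To see whether the isozyme genes moved apart, LYS21 was subtracted from LYS20 within each array. The result was 1.00, 1.11 and 1.34 on the P5-EM arrays and 0.90, 1.32 and 1.03 on the P5 arrays, so the strains overlapped. The means were 1.15 ± 0.17 in P5-EM and 1.08 ± 0.21 in P5 (SD, n = 3 each), and their difference of 0.07 was smaller than either SD (exact permutation test, two-sided, p = 0.6, where 3 arrays against 3 cannot go below 0.1). The difference turned to -0.02 without P5-EM replicate 3 and also without P5 replicate 1.

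LYS4 (YDR234W) encodes homoaconitase, the mitochondrial enzyme that makes homoisocitrate. Its levels were 10.78, 10.06 and 9.76 on the P5-EM arrays, against 9.84, 9.91 and 9.98 on the P5 arrays. One array stood apart, since P5-EM replicate 1 was far above all others and replicate 3 was the lowest of all 6. The SD of LYS4 was 0.53 over the P5-EM arrays and 0.07 over the P5 arrays, and the log2 difference of 0.29 had an interval from -0.32 to 0.90 (limma adjusted p = 0.444). Without P5-EM replicate 1 the LYS4 difference was -0.0006.

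LYS12 (YIL094C) encodes homoisocitrate dehydrogenase, the next enzyme after Lys4 and the NAD-linked decarboxylating step of the route. Its levels were 10.37, 10.27 and 10.00 on the P5-EM arrays, against 9.55, 9.40 and 9.43 on the P5 arrays. The lowest P5-EM array was well clear of the highest P5 array. The mean of LYS12 was 10.22 ± 0.19 in P5-EM and 9.46 ± 0.08 in P5 (SD, n = 3 each), a log2 difference of 0.75 (SE 0.14, limma adjusted p = 0.0210) or 1.69-fold (95% interval 1.35 to 2.11). It was the largest difference among the 9 genes and stood at rank 267 of 5498 probe sets ordered from the highest, though its interval overlapped that of each of the other 8.

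Aminoadipate is reduced to its semialdehyde by aminoadipate reductase, the product of LYS2 (YBR115C), a gene well known to yeast workers because cells without it survive on aminoadipate medium. LYS2 had 11.68, 11.52 and 11.29 on the P5-EM arrays, against 10.97, 11.18 and 11.10 on the P5 arrays. The strains did not overlap, but the lowest P5-EM array and the highest P5 array were close. The log2 difference of LYS2 was 0.41 (95% interval 0.08 to 0.74, limma adjusted p = 0.0908), which did not pass.

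Lys2 works only after Lys5, a phosphopantetheinyl transferase encoded by LYS5 (YGL154C), has attached its cofactor. LYS5 had 10.06, 10.19 and 9.81 on the P5-EM arrays, against 9.79, 9.80 and 10.07 on the P5 arrays. The strains overlapped over most of their range. LYS5 had the smallest difference of the 9 genes, 0.13 on the log2 scale (95% interval -0.22 to 0.49, limma adjusted p = 0.547).

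The final pair of enzymes both carry the name saccharopine dehydrogenase. LYS9 (YNR050C) encodes the one that joins the semialdehyde to glutamate, giving saccharopine. LYS9 had 11.55, 11.36 and 11.21 on the P5-EM arrays, against 10.97, 10.62 and 10.54 on the P5 arrays. All P5-EM arrays were above all P5 arrays, with P5 replicate 1 the nearest to them. The mean was 11.37 ± 0.17 in P5-EM and 10.71 ± 0.23 in P5 (SD, n = 3 each), and the log2 difference of LYS9 was 0.67 (SE 0.16, limma adjusted p = 0.0411) or 1.59-fold (95% interval 1.22 to 2.07).

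LYS1 (YIR034C) encodes the enzyme that splits saccharopine into lysine and 2-oxoglutarate. LYS1 had 11.43, 11.25 and 11.14 on the P5-EM arrays, against 10.82, 10.82 and 10.83 on the P5 arrays. The P5 arrays of LYS1 were almost equal (SD 0.0069), and the P5-EM arrays all lay above them (SD 0.15). The log2 difference was 0.45 (SE 0.12, 95% interval 0.17 to 0.73), a 1.36-fold difference at a limma adjusted p of 0.0502. LYS9 at 0.0411 and LYS1 at 0.0502 were thus the members just inside and just outside the limit.

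LYS14 (YDR034C) encodes the zinc cluster activator that raises transcription of LYS genes when the semialdehyde builds up. Its levels were 7.64, 7.66 and 7.54 on the P5-EM arrays, against 7.08, 7.33 and 7.25 on the P5 arrays. The strains did not overlap, and the P5-EM arrays were the closer together, with an SD of 0.06 against 0.13 over the P5 arrays. The log2 difference of LYS14 was 0.40 (95% interval 0.12 to 0.67, limma adjusted p = 0.0657), which did not pass.

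**Figure D2:**
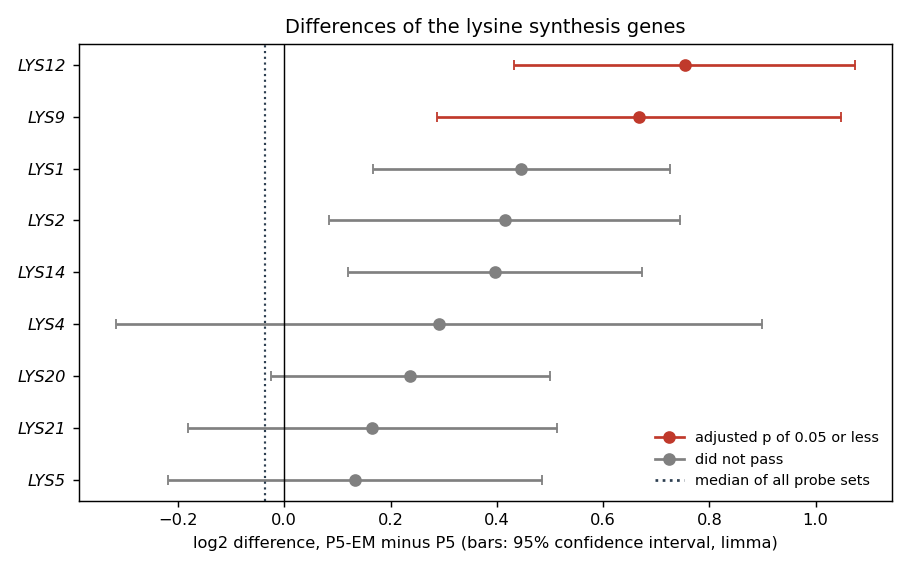
Log2 difference, P5-EM minus P5, of each lysine synthesis gene (horizontal axis), with bars for the 95% confidence interval of limma and the dotted line at the median of all 5498 probe sets, -0.04. LYS12 and LYS9, in red, passed the limit of 0.05, and the intervals of LYS4, LYS20, LYS21 and LYS5 include 0.

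Counted together, 2 of the 9 genes were called higher in P5-EM, where 6.09% of all probe sets were, and 0 were called lower, where 7.78% were. At 2-fold or more, 0 of the 9 were called, against 3.93% of all probe sets. At an unadjusted limma p of 0.05 or less, 5 of the 9 were higher (LYS12, LYS9, LYS1, LYS14 and LYS2), against 16.4% of all probe sets, and 0 were lower. By the methods' t-test, here adjusted over all 5498 probe sets, 0 passed after adjustment and 6 did before it. The methods applied that test only to genes that differed at least 2-fold, which none of the 9 did. The P5-EM arrays were all above the P5 arrays for 6 of the 9 genes, which was so for 21.1% of all probe sets, and the difference was positive for 9 of the 9, against 46.4%. The median log2 difference was 0.40 over the 9 genes and -0.04 over all probe sets.

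The members did not stand equally high on the P5-EM arrays. Measured from the P5 mean of each gene, their median was 0.60 on replicate 1, 0.42 on replicate 2 and 0.21 on replicate 3, while the median over all probe sets was -0.09, -0.01 and 0.02. Replicate 3 was the lowest of the P5-EM arrays for all 9 genes, as it was for 27.2% of all probe sets. Replicate 1 was the highest for 7 of the 9 (35.8% of all probe sets), and replicate 2 for LYS5 and LYS14 (22.3%).

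The array that correlated least with its replicates was thus also the one on which most members were highest, so the calls were also made without it. Without P5-EM replicate 1, 4 of the 9 genes were called higher (limma adjusted p of 0.00799 for LYS12, 0.0256 for LYS9, 0.0344 for LYS1 and 0.0485 for LYS14), where 12.2% of all probe sets were. The median difference of the 9 was then 0.32. Without P5-EM replicate 3 the count was also 4, where 8.42% of all probe sets were called higher. The calls of LYS12 and LYS9 ended, leaving 0 of the 9, when P5-EM replicate 2 or any 1 of the P5 replicates was left out (4 or 5 members at an unadjusted limma p), and without P5 replicate 2 or 3 no probe set of the table passed. LYS1 passed in 6 of 13 other settings, LYS14 and LYS2 in 2 each, and LYS20, LYS21, LYS4 and LYS5 in none.

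**Figure D3:**
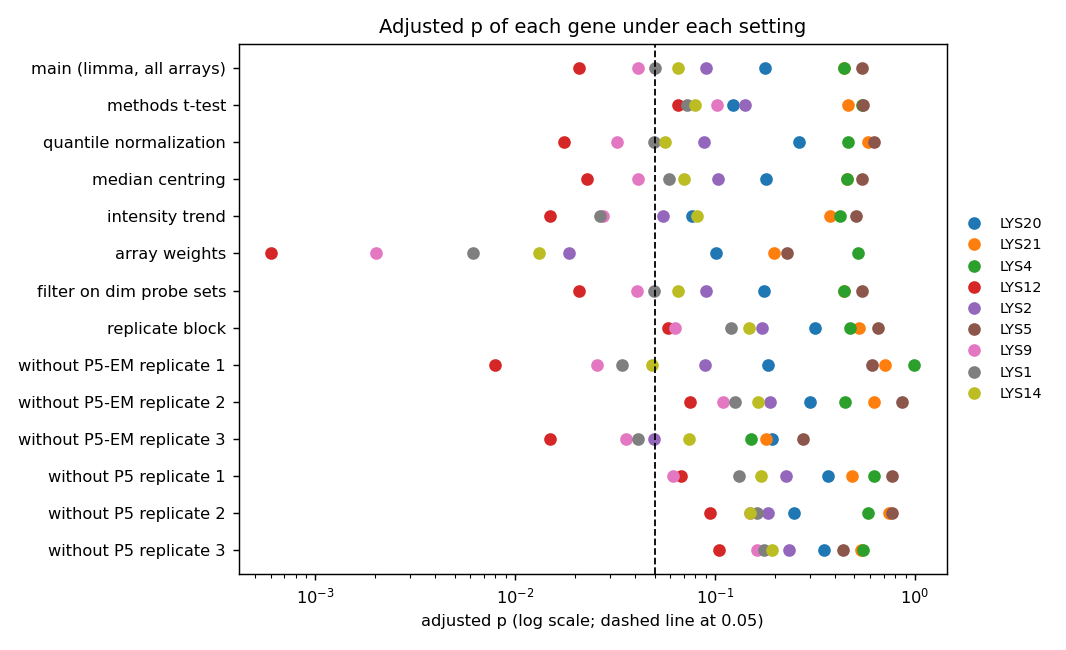
Adjusted p (horizontal log axis, limma except where the row says otherwise) of each lysine synthesis gene in the main comparison and under 13 other settings (rows), with the dashed line at 0.05. LYS12 lies between 0.000602 and 0.105 and LYS9 between 0.00202 and 0.163, while LYS1 falls on either side of the line.

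The median of some genes of the general stress response, used as a check of cell state, ran the other way over the P5-EM arrays. The median log2 level of HSP12, HSP26, CTT1, DDR2 and GRE1 was 7.96, 8.76 and 10.26 on replicates 1, 2 and 3 of P5-EM, against 9.69, 9.89 and 9.78 on those of P5. P5-EM replicate 3, the array with the lowest lysine synthesis levels in that strain, thus had the highest median of the stress genes there. That order was common, since replicate 3 was the highest P5-EM array for 41.9% of all probe sets and replicate 1 the lowest for 49.9%. The differences of the 5 genes were mixed, from -1.52 to 0.33, with a median of -0.25. That median was -0.87 without P5-EM replicate 3 and 0.22 without P5-EM replicate 1. With limma 0 of the 5 genes passed after adjustment (0 higher and 1 lower at an unadjusted p of 0.05 or less, and 0 with the methods' t-test). Without P5-EM replicate 3, 2 of the 5 were called lower, as were 543 of 5498 probe sets. The part of the stress genes in the spread of the LYS genes was not tested. Of 8 haploid mating genes 1 was called higher and 0 lower, and of 4 sporulation genes 0 were called higher and 1 lower. Over all probe sets 6.09% were called higher and 7.78% lower.

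How closely the members followed each other was described by the correlation of each with the mean of the other 8 over the 6 arrays. All genes were read on the same arrays, 3 of each strain. A strain difference or a deviating array common to the genes therefore enters these correlations. LYS1 followed the others most closely, at 0.982, with LYS2 at 0.962 and LYS12 at 0.949. LYS14, LYS9 and LYS20 lay at 0.858, 0.854 and 0.836, and LYS21, LYS4 and LYS5 were the loosest at 0.777, 0.703 and 0.579. Such values are reached by many genes that differ between the strains and vary over the P5-EM arrays: 219 of the 5440 other genes (4.03%) had a correlation of 0.95 or more with the mean of all 9.

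The 5 genes closest to that mean were RPS14A at 0.995, VMA5 at 0.995, POC4 at 0.994, RPS14B at 0.993 and SEC11 at 0.993. RPS14A and RPS14B encode the same ribosomal protein from nearly identical copies, so their probe sets may share signal, VMA5 a subunit of the vacuolar proton pump, POC4 a proteasome assembly chaperone and SEC11 the catalytic subunit of signal peptidase. These 5 were picked for their likeness to the members over the same 6 arrays. Their direction and replicate order therefore come with the choice and are not separate results. All 5 were called higher in P5-EM, with limma log2 differences of 0.89, 0.68, 0.94, 1.42 and 0.56 in the order named. RPS14B, with the widest difference, had 10.39, 9.73 and 8.85 on the P5-EM arrays, against 8.32, 8.22 and 8.15 on the P5 arrays, the same order of replicates as in most members.

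Several reactions beside the LYS genes complete the pathway, and of 6 such genes measured 1 was called higher and 0 lower. Of all probe sets 6.09% were called higher and 7.78% lower. At an unadjusted limma p 3 of the 6 were higher and 0 lower, and the median log2 difference was 0.52. ACO1 encodes the aconitase of the tricarboxylic acid cycle. It had 11.42, 11.51 and 11.65 on the P5-EM arrays, against 10.77, 10.84 and 10.62 on the P5 arrays, with no overlap and replicate 3 the highest, unlike in any LYS gene. The log2 difference of ACO1 was 0.79 (SE 0.12, limma adjusted p = 0.0150).

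ARO8 encodes an aminotransferase that can aminate 2-oxoadipate and ODC2 a mitochondrial carrier that exports 2-oxoadipate and 2-oxoglutarate. ARO8 had 11.64, 11.57 and 11.21 on the P5-EM arrays, against 11.02, 11.28 and 11.25 on the P5 arrays, and replicate 3 fell within the P5 range (log2 difference 0.29, limma adjusted p = 0.232). ODC2 had 10.71, 10.63 and 10.30 on the P5-EM arrays, against 9.90, 10.11 and 10.19 on the P5 arrays. It did not overlap between strains and did not pass (log2 difference 0.48, limma adjusted p = 0.0817).

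None of 9 regulators passed in the comparison of all 6 arrays with limma, with 1 higher and 1 lower at an unadjusted p of 0.05 or less (0 and 1 with the methods' t-test), and their median difference was -0.03. MKS1, a negative regulator of the retrograde genes whose loss was also found to raise lysine synthesis, had 6.21, 6.63 and 6.63 on the P5-EM arrays, against 6.76, 6.82 and 6.74 on the P5 arrays. All P5-EM arrays of MKS1 lay below the P5 arrays, at a log2 difference of -0.28 (limma adjusted p = 0.215). GCN4, whose product is made mainly by control of translation, so that its transcript says little of its activity, had 10.90, 10.93 and 10.75 on the P5-EM arrays, against 10.61, 10.79 and 10.88 on the P5 arrays. These overlapped, with a log2 difference of 0.10 (limma adjusted p = 0.595).

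Among these regulators, RTG2 and GCN1 lay farthest from 0 in each direction, and were named after their values were seen. RTG2, which activates the retrograde genes, had 8.85, 9.51 and 9.44 on the P5-EM arrays, against 10.12, 9.89 and 10.03 on the P5 arrays. All P5-EM arrays of RTG2 were lower, at a log2 difference of -0.74 (SE 0.20, limma adjusted p = 0.0504), just outside the limit, and RTG2 passed as lower in 6 of 13 other settings. GCN1, which helps the kinase Gcn2 to respond to uncharged tRNA, had 9.44, 8.71 and 8.42 on the P5-EM arrays, against 8.26, 8.14 and 8.10 on the P5 arrays. All P5-EM arrays of GCN1 were higher, at a log2 difference of 0.69 (limma adjusted p = 0.114), and GCN1 passed as higher in 2 of the 13.

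Among 11 genes of lysine uptake, vacuolar transport of basic amino acids and charging of lysine tRNA, 2 were called higher and 1 lower, with a median difference of 0.19. The shares over all probe sets were 6.09% higher and 7.78% lower. At an unadjusted limma p 3 of the 11 were higher and 2 lower. Over the other settings 0 to 4 were called higher and 0 to 2 lower. RTC2, for a vacuolar membrane protein of the PQ-loop family that carries basic amino acids, had 10.56, 10.72 and 10.27 on the P5-EM arrays, against 9.65, 9.86 and 9.97 on the P5 arrays (log2 difference 0.69, SE 0.16, limma adjusted p = 0.0389). MSK1, for the mitochondrial lysyl-tRNA synthetase, had 9.93, 9.97 and 10.04 on the P5-EM arrays, against 9.19, 9.52 and 9.37 on the P5 arrays (log2 difference 0.62, SE 0.12, limma adjusted p = 0.0264). The strains did not overlap for either gene.

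ALP1, for an arginine permease related to the lysine permease, was the gene called lower. It had 6.21, 5.69 and 6.49 on the P5-EM arrays, against 6.89, 7.08 and 7.05 on the P5 arrays (log2 difference -0.88, SE 0.21, limma adjusted p = 0.0413). LYP1, for the lysine permease itself, had 11.35, 11.25 and 11.19 on the P5-EM arrays, against 11.16, 11.23 and 11.32 on the P5 arrays, overlapping throughout (log2 difference 0.03, 95% interval -0.23 to 0.29, limma adjusted p = 0.875). KRS1, for the cytosolic lysyl-tRNA synthetase, had 11.30, 11.47 and 11.25 on the P5-EM arrays, against 11.08, 11.16 and 11.13 on the P5 arrays. Its arrays did not overlap, at a log2 difference of 0.21 that did not pass (limma adjusted p = 0.217).

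The 2-oxoglutarate that enters the pathway and the glutamate used by Lys9 come from central metabolism. The list read here held 12 genes around this supply, some of them retrograde targets, with a median difference of 0.03. Of the 12, 1 was called higher and 0 lower (3 and 0 at an unadjusted limma p). That count is near the share over all probe sets, 6.09% higher and 7.78% lower. The gene called higher was GLT1, for glutamate synthase, which uses 2-oxoglutarate and glutamine. GLT1 had 11.36, 11.06 and 10.85 on the P5-EM arrays, against 10.15, 10.34 and 10.37 on the P5 arrays. The P5-EM arrays were all higher, in the replicate order of most LYS genes, with a log2 difference of 0.81 (SE 0.16, limma adjusted p = 0.0260).

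Other amino acid pathways under general control were read for comparison, without a test of one list against another. Of all probe sets 6.09% were called higher and 7.78% lower. In arginine synthesis 2 of 7 genes measured were called higher and 0 lower (ARG2, log2 difference 0.59, limma adjusted p = 0.0391, and ARG8, 0.57, limma adjusted p = 0.0462), with a median of 0.43. ARG2 and ARG8 act in the acetylated steps to ornithine. In histidine synthesis 2 of 7 were called higher and 0 lower (HIS6, 0.68, limma adjusted p = 0.0325, and HIS2, 0.56, limma adjusted p = 0.0461), with a median of 0.33. In leucine, isoleucine and valine synthesis 0 of 11 passed in either direction with limma or with the methods' t-test, although all 11 differences were positive and 3 genes were higher at an unadjusted limma p, and the median was 0.28. The share called was 2 of 9 in the lysine pathway, and its median of 0.40 lay between those of histidine and arginine synthesis.

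**Figure D4:**
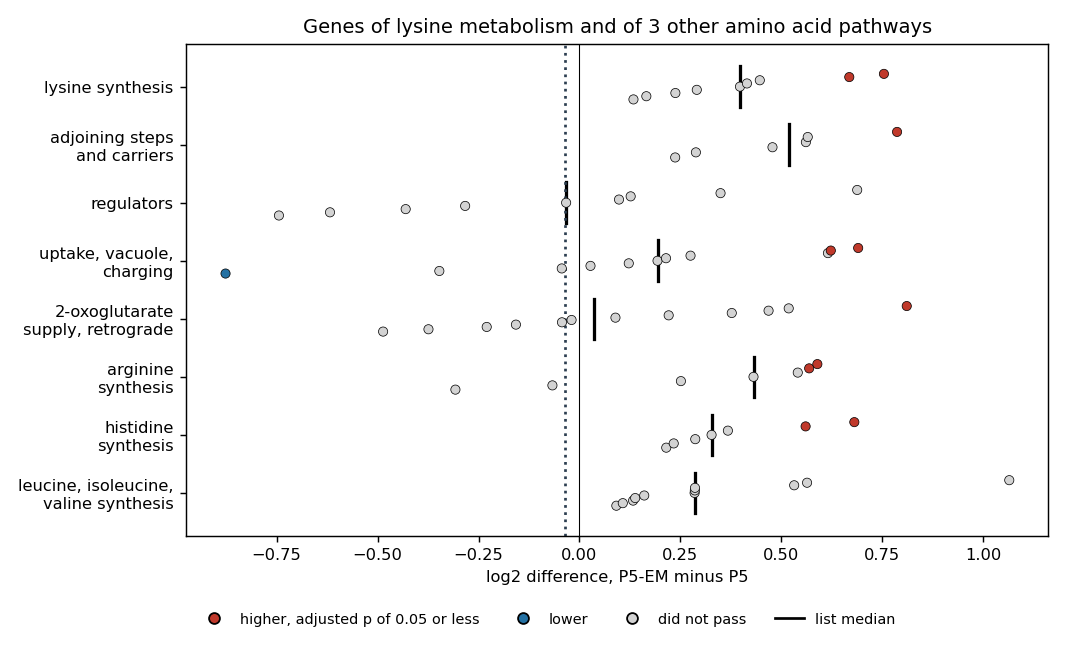
Log2 difference, P5-EM minus P5 (horizontal axis), of the lysine synthesis genes and of 7 other lists (rows). Each point is a gene, red where called higher, blue where called lower and grey where it did not pass, black bars are list medians, and the dotted line is the median of all probe sets. All 9 lysine synthesis genes lie to the right of 0, as do all genes of histidine synthesis and of leucine, isoleucine and valine synthesis.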

How the data were processed

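RNA of 6 cultures was amplified by the authors from 25 ng over 17 cycles and hybridised to Affymetrix Yeast Genome 2.0 arrays. Each deposited value is the log2 expression of a probe set on an array, computed by the authors with GCOS and with RMA in Partek (background correction, normalization between arrays, summary of probes), replicates unpooled. The array number limits the precision.

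Of 10928 probe sets, 5498 annotated with 1 S. cerevisiae gene entered the test, and 12 symbols were updated. P5-EM minus P5 was fitted with limma 3.58.1 (lmFit, eBayes) in R 4.3.3 without covariates, as in the authors' comparison, with Benjamini-Hochberg adjustment over all 5498. The scripts were tested on simulated data. The differences planted there were wider than that of any member, so calls at the members' size were not tested. Alternatives were the methods' t-test (adjusted over all probe sets and, as the authors did, over the 2-fold ones), quantile normalization, median centring, an intensity trend, array weights, a filter on dim probe sets, the replicate number as a block, and leaving out each array.

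The members, lists and tests were chosen with earlier results of these data known. Named beside the 9 members were ARO8, ODC2, MKS1, LYP1, KRS1 and GCN4, up to 3 called genes a list with the lowest adjusted p, and the 5 genes most like the members. Some listed genes are not reported here. The array files used here name no genome build, so no coordinates are given.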

Additional observations from a re-analysis of the deposited data

How the results depend on the processing

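The median difference of the 9 genes stayed between 0.32 and 0.51 under all settings, and each member kept its direction except LYS4. Members called higher numbered 0 with the methods' t-test adjusted over all probe sets, 5 with array weights, 0 with the replicate number as a block and 0 to 4 when 1 array was left out, and 0 were called lower or at 2-fold in any setting. At an unadjusted p of 0.05 or less 4 to 6 members were higher in every setting, where 10.0% to 23.8% of all probe sets were. LYS12 and LYS9 lost their call in 6 of 13 settings each. Probe sets called higher, 335 in the main comparison, numbered 61 with the t-test, 1043 with array weights, 83 with the block and 0 to 669 with an array left out. Probe sets called lower, 428 in the main comparison, numbered 102, 1117, 125 and 0 to 793 in the same order, and those at 2-fold or more, 216, numbered 55 with the t-test adjusted over all probe sets, 190 with it adjusted over the 2-fold probe sets as in the methods, and 0 to 419 with an array left out. Without P5 replicate 2 and without P5 replicate 3 no probe set passed, although 657 and 550 were higher at an unadjusted limma p. Without P5-EM replicate 3, LYS12, LYS9, LYS1 and LYS2 were called. The LYS4 difference was -0.0006 without P5-EM replicate 1. LYS20 minus LYS21 was -0.0236 without P5-EM replicate 3 and -0.0203 without P5 replicate 1, within a range up to 0.19. Genes called in the other lists ranged from 0 to 5 higher and 0 to 2 lower per list. The median of arginine synthesis ran from 0.32 to 0.57 and of histidine synthesis from 0.21 to 0.41. For leucine, isoleucine and valine synthesis it ran from 0.15 to 0.36 and for the regulators from -0.15 to 0.06. For 2-oxoglutarate supply and retrograde targets it ran from -0.02 to 0.10. The cause of these changes was not tested. Each fit without an array has fewer degrees of freedom, and the counts moved in both directions. Probe sets called higher numbered 669 without P5-EM replicate 1 and 463 without P5-EM replicate 3, but 0 without P5 replicate 2 or 3. Whether same-numbered arrays were handled together is not given in the sources used here. Their deviations from the strain means correlated at -0.032, -0.279 and -0.016, which cannot decide it with 3 arrays a strain. Array weights were estimated gene by gene because the default estimate did not converge, and P5-EM replicate 1 received the lowest weight, 0.15. Signal over background limited no member, the smallest excess being 4.80 log2 units for LYS14.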
